A study of Rattus norvegicus with 9 samples.

Results

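The miR-130 and miR-301 family was followed through cultured rat cartilage progenitor cells. Its 8 rows, of 726 miRNA rows in the table, were chosen by name: every arm of miR-130a, miR-130b, miR-301a and miR-301b, which gave 4 hairpins with 4 rows for the 3p arm and 4 for the 5p arm (rno-miR-130a-3p, rno-miR-130a-5p, rno-miR-130b-3p, rno-miR-130b-5p, rno-miR-301a-3p, rno-miR-301a-5p, rno-miR-301b-3p and rno-miR-301b-5p). The family was taken up with earlier results of these data known. The rows of miR-3590 were left out because they share counts with miR-130a, described below. Small RNA was sequenced from total RNA in 9 libraries, 3 in each of 3 groups. P3 is the passage 3 control, P9 is passage 9, the replicative senescence group, and FFSS is passage 3 cells under flow fluid shear stress, the drag of moving medium on the cells. All groups are wild-type primary cultures from condylar cartilage, the cartilage on the head of the jaw joint. The labels give neither the age or number of the animals nor the strength and duration of the stress, and they leave unstated whether a replicate is its own culture or animal. All p-values therefore measure the spread between libraries only, and that spread may be technical.

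A miRNA hairpin is cut into a duplex of 2 arms, and usually one arm, the guide, is loaded into Argonaute and binds mRNAs through its seed, the bases from position 2 to position 8, while the other, the passenger, is mostly degraded. In this family the 3p arms carry the shared seed and are named as guides here. In these cells the 5p arm nevertheless had more reads for miR-301a, miR-130b and miR-301b, as given below. The family is known for repressing PPARG, a regulator of fat cell formation, and it has been tied to matrix stiffening and to TGF-beta signalling in fibrous and vascular tissue.

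The mature sequences, from RefSeq (build GRCr8) for the 7 of 8 rows that matched, are shown because the arms' seeds divide the family. They run 5′ to 3′ with the seed in capitals, guide arms before passenger arms.
miR-130a-3p: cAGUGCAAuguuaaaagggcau
miR-130b-3p: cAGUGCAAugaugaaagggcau
miR-301b-3p: cAGUGCAAugguauugucaaagc
miR-130a-5p: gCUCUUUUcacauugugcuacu
miR-130b-5p: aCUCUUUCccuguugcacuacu
miR-301a-5p: gCUCUGACuuuauugcacuac
miR-301b-5p: gCUCUGACuagguugcacuacu

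The 3 printed guide arms share the seed AGUGCAA, and no row outside the family, among the 578 rows matched to RefSeq, has it. miR-130a-3p and miR-130b-3p were identical at 20 of 22 bases and differed by U11A and A13G (miR-130a-3p first, positions counted from the 5′ end). miR-301b-3p matched miR-130a-3p at 13 of 22 bases. The 5p arms have other seeds: miR-301a-5p and miR-301b-5p share CUCUGAC, and miR-130a-5p (CUCUUUU) and miR-130b-5p (CUCUUUC) each have one found in no other matched row. From position 13, miR-130b-5p, miR-301a-5p and miR-301b-5p hold UUGCACU, the reverse complement of the guide seed, which miR-130a-5p does not hold.

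In GRCr8 the miR-301b hairpin lies at chr11:97384033-97384110 and the miR-130b hairpin at chr11:97384380-97384461, both on the plus strand with 269 bases between them. Both are printed because the arms of these neighbours were read mostly in P9, with the mature arms in capitals.
miR-301b hairpin: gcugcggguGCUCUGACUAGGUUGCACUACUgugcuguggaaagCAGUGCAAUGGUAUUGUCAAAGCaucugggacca
miR-130b hairpin: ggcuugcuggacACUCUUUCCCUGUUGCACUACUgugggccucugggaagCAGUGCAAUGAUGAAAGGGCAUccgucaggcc

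Both lie within the span of the gene 2610318N02Rikl. The miR-301a hairpin, at chr10:72422599-72422698 on the plus strand, lies within the spans of Ska2, which codes for a protein of the kinetochore, and Prr11. The miR-130a hairpin, at chr3:90229228-90229315 on the minus strand, lies within no annotated gene other than miRNAs. Whether the hairpins are exonic or intronic was not analysed here. These coordinates come from the RefSeq table. The submitters' processing notes name another build, Rnor_6.0, for the reads.

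miR-3590 lies on the opposite strand of the miR-130a locus. Its 5p row covers 21 bases of miR-130a-3p and is their reverse complement, and its 3p row does so for 20 bases of miR-130a-5p. The counts of miR-3590-5p equalled those of miR-130a-3p in 9 of 9 libraries. Those of miR-3590-3p equalled miR-130a-5p in 6 of 9 libraries, with a largest difference of 1 read. Whether the counting used strand is not stated in any label or header, and the reads called miR-130a below cannot be assigned to 1 strand from the table.

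Counts summed over all rows came to 2878910 to 8862560 a library, with FFSS replicates 1 and 3 the shallowest (2878910 and 3896403). Rows on opposite strands with equal or nearly equal counts both enter these totals. P9 replicate 3 stood apart, with a correlation of log CPM across miRNAs of 0.956 and 0.963 with the other P9 libraries, which correlated at 0.994. The correlation was also lower for FFSS replicate 1 (0.962 and 0.971) than between FFSS replicates 2 and 3 (0.986). The summed level of 7 blood markers was 79.5 to 160 CPM in P3, 73.1 to 311 CPM in P9 and 171 to 603 CPM in FFSS, with miR-144-3p at 0 reads in P3. The 5 muscle markers summed to 141 to 158 CPM in P3 and to 534 CPM in P9 replicate 3, against 151 and 167 CPM in the other P9 libraries, and to 189 to 538 CPM in FFSS. The 2 endothelial markers summed to 386 to 406 CPM in P3, 275 to 491 CPM in P9 and 556 to 695 CPM in FFSS. The liver marker miR-122-5p was at 9.87 to 11.7 CPM in P3, 3.43 to 22.9 CPM in P9 and 15.5 to 51.4 CPM in FFSS. The blood, muscle, endothelial and liver markers were thus higher in every FFSS library than in every P3 library. The 7 epithelial markers overlapped between P3 (81.1 to 102 CPM) and FFSS (90.4 to 226 CPM), with 25.2 to 77.7 CPM in P9, lowest in replicate 3. The 4 nervous system markers overlapped too, at 535 to 1169 CPM in P3 and 566 to 1376 CPM in FFSS. In P9 they summed to 618 to 1546 CPM, highest in replicate 3. The 4 cartilage markers (arms of miR-140 and miR-455) summed to 4150 to 7370 CPM in P3, 2590 to 3847 CPM in P9 and 6077 to 7202 CPM in FFSS. The part of other cell types in the results below was not tested. In such bulk RNA, fewer cells of a type and less RNA per cell cannot be told apart.

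Levels are given in CPM, reads scaled to a common library total with all miRNA rows as the total, and need no length term for mature sequences of 21 to 23 bases. Adapters were ligated to both RNA ends, and how evenly different miRNAs were captured was not tested. All 8 rows were scarce: the highest by mean level, miR-130a-3p, was at rank 201 of 726 with 31.9 CPM over the 9 libraries, and the lowest, miR-301b-3p, at rank 626 with 6 reads in all. In P3 miR-301a-5p (27.5 ± 8.68 CPM, SD, n = 3) and miR-130a-3p (23.6 ± 3.33 CPM) overlapped at the top. Below them came miR-130a-5p (6.58 ± 2.68 CPM), miR-301a-3p (2.40 ± 1.15 CPM) and miR-130b-5p (0.248 ± 0.141 CPM), whose ranges did not overlap, and miR-130b-3p had 1 read. Both miR-301b arms were at 0 reads in P3, where a count of 0 over the group allows up to 0.121 CPM. In P9 miR-130b-5p (7.92 ± 3.61 CPM) overlapped miR-130a-5p (5.48 ± 1.98 CPM), and in FFSS miR-130a-3p (47.8 ± 5.29 CPM) stood above all others.

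**Figure D1:**
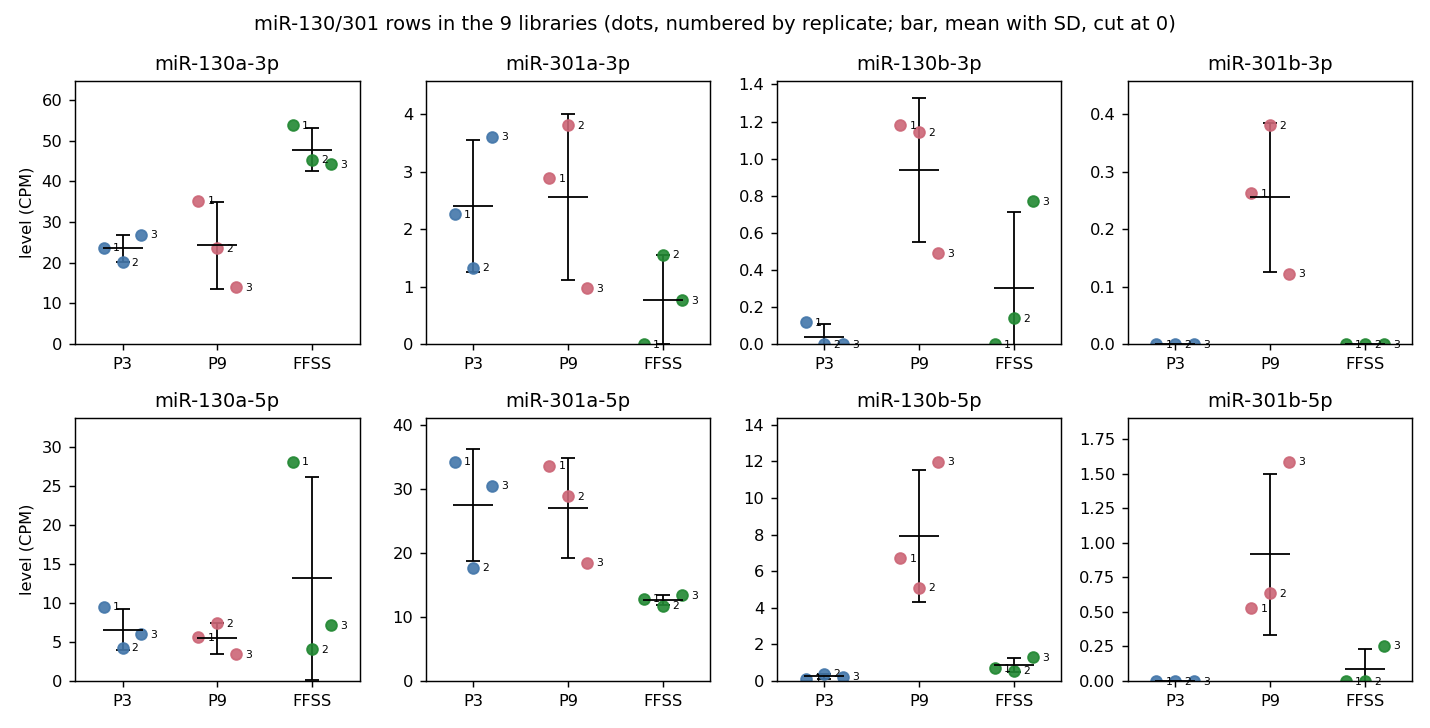
Level of each row in CPM (y axis, a separate linear scale per panel) in the P3, P9 and FFSS libraries, with dots numbered by replicate and bars for mean and SD. miR-130b-5p is at 5.08 to 12.0 CPM in P9 and at most 1.28 CPM elsewhere, miR-130a-3p is at 44.1 CPM or more in FFSS and miR-301a-5p at 13.3 CPM or less there.

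Rows were kept for testing by a filter on low counts, which 5 members passed and 3 did not (miR-130b-3p, miR-301b-3p and miR-301b-5p). A row was called at an edgeR quasi-likelihood adjusted p under 0.05 over the 439 rows kept. In P9 against P3, 1 of the 5 tested members was called, beside 7.29% of all rows, and 1 of 5 had groups that did not overlap, beside 25.3% of all rows. In FFSS against P3, 1 of 5 was called, beside 20.5%, and 3 of 5 did not overlap, beside 41.5%. In P9 against FFSS, 2 of 5 were called, beside 34.4%, and 3 of 5 did not overlap, beside 42.8%. miR-130b-5p passed the filter only through its P9 libraries, so these shares do not describe the whole family. The comparisons share libraries and are not independent of each other.

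**Figure D2:**
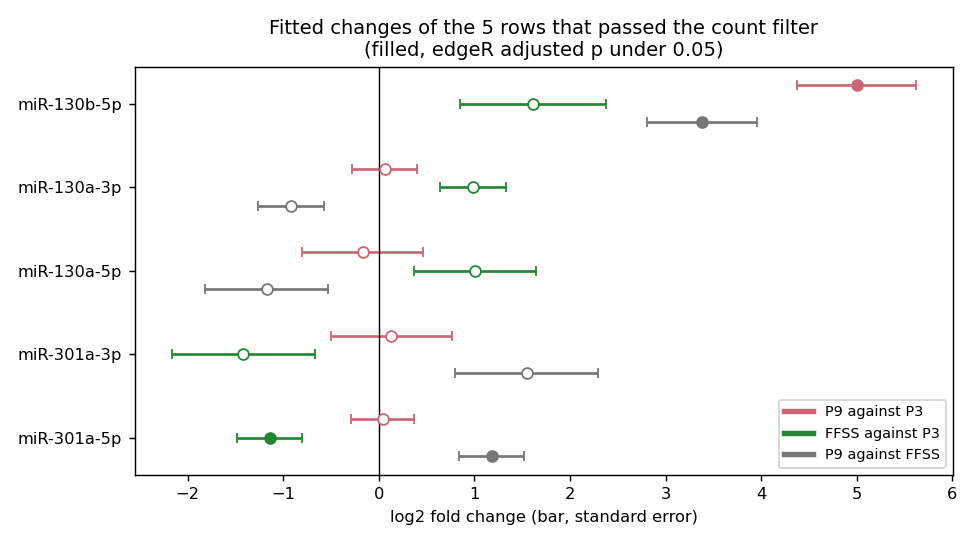
Log2 fold change (x axis, bars for standard error) of the 5 members that passed the count filter, in the 3 comparisons, with filled symbols where the edgeR adjusted p was under 0.05. miR-130b-5p stands alone at 5.00 in P9 against P3, while the other members sit between -0.17 and 0.13 there.

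The 1 member called at passage 9 against P3 was the passenger arm of the miR-130b hairpin. miR-130b-5p had 1, 3 and 2 reads in P3 (0.119, 0.399 and 0.226 CPM), 51, 40 and 98 reads in P9 (6.70, 5.08 and 12.0 CPM) and 2, 4 and 5 reads in FFSS (0.695, 0.565 and 1.28 CPM). Every P9 library lay far above every P3 and FFSS library. The row rose 32.0-fold in P9 over P3 (log2 fold change 5.00, SE 0.62, adjusted p = 5.02e-04, higher in 3 of 3 libraries). Since the row passed the filter only through P9, the fit of all 726 rows without the filter is given beside it, and there the adjusted p was 1.44e-06 (log2 fold change 4.98). It was also 10.5-fold higher in P9 than in FFSS (log2 fold change 3.39, SE 0.58, adjusted p = 9.06e-04, and 3.38e-05 without the filter).

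P9 replicate 3, the library that stood apart, held the most miR-130b-5p. Without it the log2 fold change was 4.50 over P3 (adjusted p = 8.48e-05) and 2.96 over FFSS (adjusted p = 5.39e-04), so that the difference was present in the other P9 libraries. In FFSS against P3 the groups did not overlap either, but with 11 reads against 6 the change of 1.61 (SE 0.76, adjusted p = 0.147) did not pass.

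The guide arm of the same hairpin, miR-130b-3p, was read 27 times in all. It had 1, 0 and 0 reads in the P3 libraries, 9, 9 and 4 in the P9 libraries and 0, 1 and 3 in the FFSS libraries. P9 was higher than P3 in every library, while its lowest library (0.489 CPM) lay under the highest FFSS library (0.770 CPM). The pooled ratio of P9 to P3 was 23.1 with an exact interval from 3.73 to 952, and of P9 to FFSS 3.22 from 1.09 to 12.9, for counting error only. For the 3 rows that failed the filter, an edgeR fit without it was read, a choice made after seeing the data. These rows were read mostly in P9. In that fit 41 of 726 rows were called for P9 against P3, and the adjusted p of miR-130b-3p was 0.0260. It ranged from 0.00847 to 0.139 when each library was left out, with 5 of 9 fits under the threshold. DESeq2 gave an adjusted p of 0.0695, above the threshold. P9 against FFSS did not pass without the filter (adjusted p = 0.209, and 0 of 9 fits leaving out 1 library).

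The miR-301b arms, from the neighbouring hairpin, were read almost only in P9. miR-301b-5p had 4, 5 and 13 reads in the P9 libraries, 1 in FFSS replicate 3 and 0 in the other 5 libraries. Its pooled P9 level was 7.69 times the floor of 3 counts over P3, with the counting error of the P9 reads left out. The ratio to FFSS was 12.9 (exact interval 2.08 to 532). Without the filter, again a choice made after seeing the data, the edgeR adjusted p was 0.00779 against P3 (22 reads against 0). In that fit 41 of 726 rows were called. Only leaving out P9 replicate 3, which held 13 of the 22 reads, took the adjusted p past the threshold (0.0572). Against FFSS it was 0.0433, where 146 of 726 rows were called. This was lost in 4 of 9 fits leaving out 1 library: without P9 replicate 2 (0.0568), P9 replicate 3 (0.195), FFSS replicate 1 (0.0799) or FFSS replicate 2 (0.199). DESeq2 gave 0.0300 against P3.

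The guide miR-301b-3p had 2, 3 and 1 reads in P9 and 0 in every other library. Its pooled P9 level was 2.10 times the floor of 3 counts over P3 and 1.17 times that over FFSS. These values leave out the counting error of the P9 reads, so they are not lower limits of the fold. With 6 reads neither comparison passed without the filter (adjusted p = 0.291 and 0.188).

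Over the 4 arms of the miR-301b and miR-130b hairpins together, P3 libraries held 2, 3 and 2 reads, P9 libraries 66, 57 and 116, and FFSS libraries 2, 5 and 9. This was 0.336% to 0.909% of all family reads in P3 and 0.727% to 3.41% in FFSS. In P9 it was 10.1%, 10.2% and 27.8%, the last in replicate 3. Neighbouring hairpins on the same strand can come from 1 transcript, so the 4 arms are not independent members.

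miR-130a-3p, the main guide arm of the family in these cells, made up 81.5% to 100% of the guide arm reads of a library. It stood at 23.7, 20.2 and 26.9 CPM in P3, at 35.2, 23.5 and 14.1 CPM in P9 and at 53.8, 45.3 and 44.1 CPM in FFSS. The P9 libraries spread on both sides of P3, and every FFSS library lay above every P3 and P9 library. The change in FFSS over P3 was 0.99 on the log2 scale (SE 0.34) and narrowly missed the threshold (adjusted p = 0.0600, higher in 3 of 3 libraries). It passed in DESeq2 (1.02, adjusted p = 0.0213), in a fit of P3 and FFSS alone (1.02, adjusted p = 0.0339) and without P9 replicate 3 (0.93, adjusted p = 0.0272). With edgeR it did not pass without the filter (adjusted p = 0.149), with a replicate block (0.108) or by library size (0.0738). Of the 9 fits leaving out 1 library only 1 passed, with adjusted p up to 0.237. P9 against FFSS gave -0.92 (SE 0.34, adjusted p = 0.0521) and passed in 0 of 9 such fits. P9 against P3 gave 0.06 (SE 0.34, adjusted p = 0.956).

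The passenger of that hairpin, miR-130a-5p, stood at 9.51, 4.25 and 5.98 CPM in P3, 5.65, 7.37 and 3.42 CPM in P9 and 28.1, 4.09 and 7.19 CPM in FFSS. FFSS replicate 1, the shallowest library and the one apart from the other FFSS libraries, was far above all others with 81 reads, while FFSS replicate 2 lay just under the lowest P3 library and FFSS replicate 3 within the range of P3. No comparison passed: the fitted fold was 2.01 in FFSS over P3 (SE 0.64 on the log2 scale, adjusted p = 0.260), and the log2 value turned to -0.44 without FFSS replicate 1 (adjusted p = 0.519). Without that library P9 against FFSS turned from -1.17 (SE 0.64, adjusted p = 0.168) to 0.28 (adjusted p = 0.675). P9 against P3 gave -0.17 (SE 0.63, adjusted p = 0.949).

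For miR-301a the 5p arm was the abundant one and was lowest under shear stress. miR-301a-5p stood at 34.2, 17.7 and 30.5 CPM in P3, 33.6, 28.9 and 18.5 CPM in P9 and 12.9, 11.7 and 13.3 CPM in FFSS. The FFSS libraries lay close together and below every other library. The row fell by 1.14 on the log2 scale in FFSS against P3 (SE 0.34, adjusted p = 0.0360, lower in 3 of 3 libraries). It no longer passed when P3 replicate 1 was left out (adjusted p = 0.0954), nor without P3 replicate 3 (0.102), FFSS replicate 2 (0.0591) or FFSS replicate 3 (0.108), and when libraries were scaled by size alone (0.0605). It also did not pass with a replicate block (0.0663), on log2(TPM + 1) (0.0714) or on log2(TPM + 10) (0.0704). In P9 against FFSS the difference was 1.18 (SE 0.34, adjusted p = 0.0179), lost without FFSS replicate 3 (0.0633). P9 and P3 overlapped, with 0.04 (SE 0.33, adjusted p = 0.975).

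The guide miR-301a-3p had 19, 10 and 32 reads in P3 (2.26, 1.33 and 3.61 CPM), 22, 30 and 8 in P9 (2.89, 3.81 and 0.978 CPM) and 0, 11 and 3 in FFSS (0, 1.55 and 0.770 CPM). The 0 reads in FFSS replicate 1 allow up to 1.04 CPM at its depth. The groups overlapped, and neither FFSS against P3 (-1.42, SE 0.75, adjusted p = 0.192; -2.62 without FFSS replicate 2) nor P9 against P3 (0.13, SE 0.63, adjusted p = 0.956) passed. P9 against FFSS gave 1.55 (SE 0.75, adjusted p = 0.118) and passed only without P9 replicate 3 (1.96, adjusted p = 0.0274) or FFSS replicate 2 (2.75, adjusted p = 0.0489) among the fits leaving out 1 library. In P9 replicate 3 each of the 4 guide arms had its lowest P9 level.

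The arms were used unequally, and in opposite ways across the hairpins. Over all libraries the 5p arm gave 19.3% of the reads of the miR-130a hairpin (432 of 2237; exact 95% interval 17.7% to 21.0%), so its guide arm dominated. It gave 91.7% for miR-301a (1497 of 1632; 90.3% to 93.0%), 88.4% for miR-130b (206 of 233; 83.6% to 92.2%) and 79.3% for miR-301b (23 of 29; 60.3% to 92.0%). In these 3 hairpins the arm named as passenger was the more frequent one. Intervals cover counting error only. Over the 206 hairpins of the table with at least 20 reads the 5p arm was the more frequent in 54.4%, with a median share of 59.5%.

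**Figure D3:**
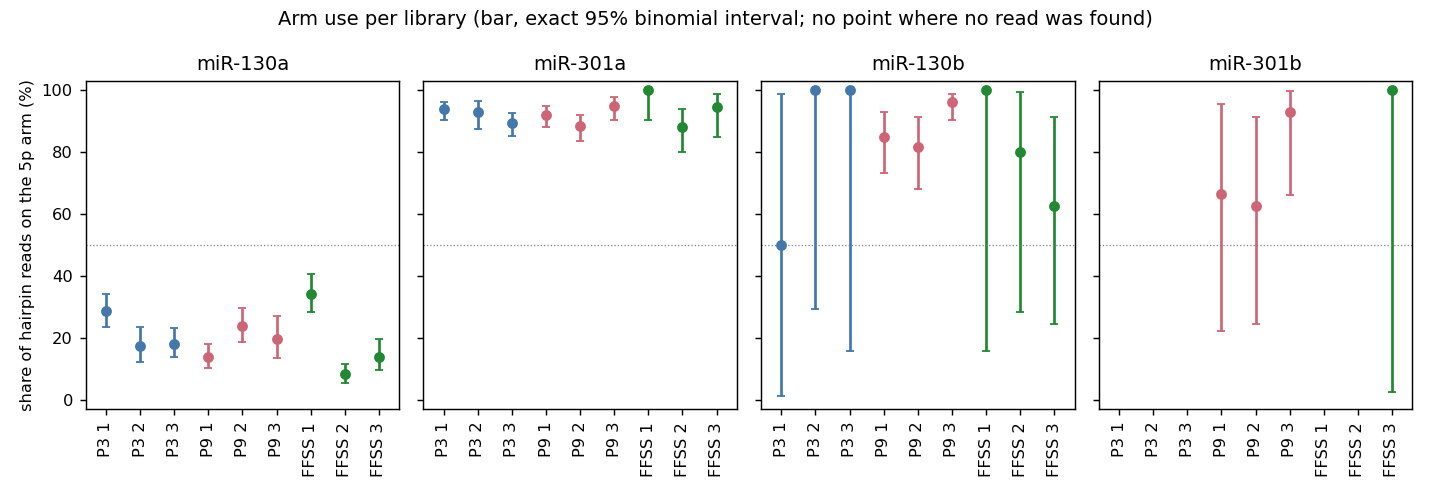
Share of each hairpin's reads on the 5p arm (y axis, percent) in each library (x axis), with exact 95% binomial intervals and a dotted line at equal use. The miR-130a shares lie between 8.29% and 34.3% and those of miR-301a between 88.3% and 100%. Every miR-130b and miR-301b point outside P9 rests on 8 reads or fewer, as does miR-301b in P9 replicates 1 and 2.

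Arm use of miR-130a did not differ between groups past the test. Its 5p share was 28.7%, 17.4% and 18.2% in the P3 libraries and 13.8%, 23.9% and 19.6% in the P9 libraries. The FFSS libraries spread the most, with 34.3%, 8.29% and 14.0%. The difference in the log2 ratio of 5p to 3p reads was -0.20 in P9 against P3 (SE 0.58, limma adjusted p = 0.989), -0.43 in FFSS against P3 (SE 0.58, adjusted p = 0.634) and 0.22 in P9 against FFSS (SE 0.58, adjusted p = 0.782). Among 88 hairpins whose arms both averaged 20 counts or more, 0%, 4.55% and 7.95% were called in these comparisons (2, 28 and 24 hairpins had an unadjusted limma p under 0.05). miR-130a alone of the family reached that minimum.

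With the minimum lowered to a mean of 1 count, a choice made after seeing the data, neither miR-130b nor miR-301a passed in any comparison (limma adjusted p from 0.307 to 0.996). For miR-130b the P9 libraries gave 5p shares of 85.0%, 81.6% and 96.1%, the highest in replicate 3. miR-301a stayed between 88.3% and 100% in all 9 libraries, and the means of both its arms were lowest in FFSS.

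The sum of the 8 rows overlapped between all groups, at 69.9, 43.9 and 67.1 CPM in P3, 86.0, 70.8 and 51.1 CPM in P9 and 95.5, 63.4 and 67.8 CPM in FFSS. Guide arms were 37.2% to 49.1% of this sum in P3, 30.6% to 46.0% in P9 and 56.4% to 74.2% in FFSS. The FFSS libraries thus held the largest guide share, at 66.0% on average and without overlap with the others. This share was not tested, and it mixes hairpins: miR-130a-3p was highest in FFSS and miR-301a-5p lowest there. Within the miR-301a hairpin the 5p arm gave 91.9% of the pooled reads in P3 and 92.5% in FFSS. For miR-130a it gave 21.9% and 17.6%.

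**Figure D4:**
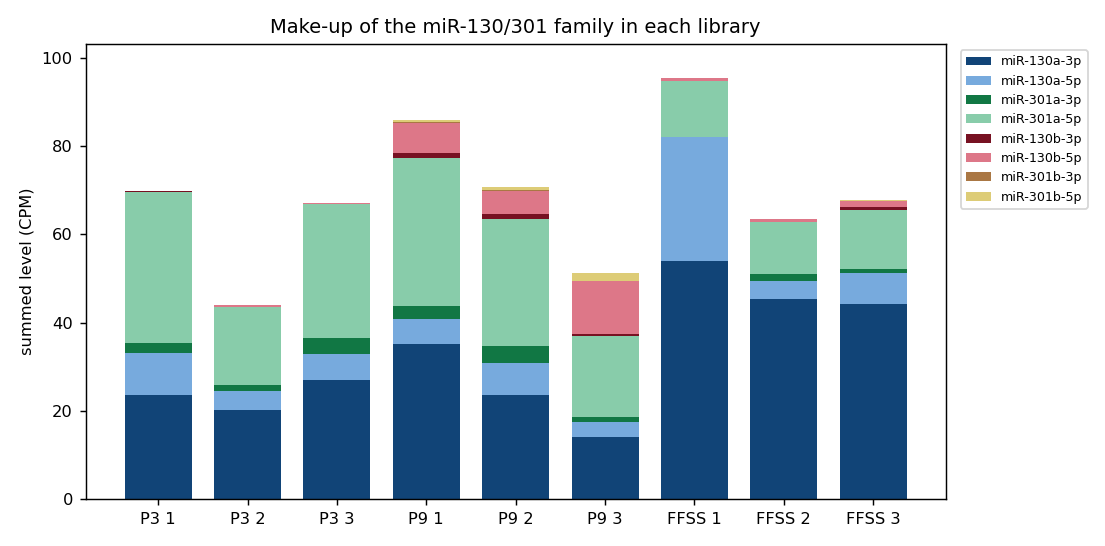
Stacked level of the 8 rows (y axis, CPM) in each library (x axis), with darker shades for 3p and lighter shades for 5p arms of miR-130a, miR-301a and miR-130b. miR-130a-3p and miR-301a-5p fill most of each P3 bar, the miR-130b arms add a visible band in P9, and miR-130a-3p is the largest band in each FFSS library.

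As a description over the 9 libraries, which share groups and depth, the most alike rows were sought among 181 rows of at least 50 CPM. miR-130a-3p was closest to miR-30b-5p (Pearson's r of log2 CPM 0.930), miR-23a-3p (0.867) and miR-214-3p (0.856), each with its highest mean in FFSS. miR-301a-3p was closest to miR-341 (0.949), miR-494-3p (0.940) and miR-199a-5p (0.934), each with its lowest mean there. miR-130b-3p, on 27 reads, was closest to miR-34c-5p (0.828), miR-31b (0.807) and miR-143-3p (0.800), each with its highest mean in P9.

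Other miRNAs known for matrix and fibrosis, among them the miR-29, miR-143/145 and miR-140 arms, were read as a list of 16, all tested. In P9 against P3, 1 rose and 0 fell, beside 7.29% of all rows called, with a median log2 fold change of -0.25 beside 0.06 over all rows. At an unadjusted edgeR p under 0.05 there were 3 higher and 3 lower, and DESeq2 called 1 in each direction. The edgeR call was miR-143-3p, an abundant miRNA of smooth muscle and fibroblasts (1.35, SE 0.24, adjusted p = 0.00348, higher in 3 of 3 libraries). In FFSS against P3, 0 rose and 1 fell, beside 20.5% of all rows called (median 0.01 beside 0.02), with 1 higher and 2 lower at an unadjusted p and the same counts of calls in DESeq2. It was miR-145-5p, from the cluster of miR-143 (-1.57, SE 0.34, adjusted p = 0.00944). In P9 against FFSS 4 were higher and 2 lower, beside 34.4% of all rows called (median -0.56 beside 0.02). At an unadjusted p 4 were higher and 6 lower, and DESeq2 called 4 higher and 5 lower. Of the 4 higher with edgeR, the largest changes were those of miR-145-5p (2.61, SE 0.35, adjusted p = 4.53e-04) and miR-143-3p (1.48, SE 0.24, adjusted p = 7.24e-04). The 2 lower with edgeR were miR-140-3p, a miRNA typical of cartilage (-1.06, SE 0.27, adjusted p = 0.00953), and miR-214-3p (-1.03, SE 0.26, adjusted p = 0.00950).

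A second list held 10 rows whose seeds resemble the family's, from the miR-148/152, miR-19 and miR-17 families, of which 9 were tested. In P9 against P3, 0 passed with edgeR (median 0.02), 0 had an unadjusted p under 0.05 and DESeq2 called 0, while 3 fell in FFSS against P3, beside 20.5% of all rows called (median -0.22). These were miR-19a-3p (-3.39, SE 0.76, adjusted p = 0.00985), miR-20a-5p (-1.72, SE 0.46, adjusted p = 0.0267) and miR-17-5p (-1.18, SE 0.38, adjusted p = 0.0459), all of the growth-promoting miR-17-92 cluster and lower in 3 of 3 libraries. At an unadjusted edgeR p under 0.05, 4 of the list were lower and 0 higher in FFSS against P3. DESeq2 called 4 lower, and limma on log2(TPM + 1) or log2(TPM + 10) called 2 lower. miR-19a-3p was scarce, at 3.12 ± 1.04 CPM in P3 and 0.265 ± 0.257 CPM in FFSS (SD, n = 3). This FFSS mean lies under the floor of 3 counts in each FFSS library (0.424 to 1.04 CPM). In P9 against FFSS, where 34.4% of all rows were called, the same 3 rows were higher, and miR-152-3p was lower (-0.83, SE 0.26, adjusted p = 0.0246), with a median of 0.25. DESeq2 called 4 higher and 1 lower there, and both limma fits called 2 higher and 2 lower.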

How the data were processed

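Each library had a column of read counts and a column of TPM values in the deposited table, per the file headers. The TPM values held no length term: they differed by at most 4.85e-05 from CPM computed from the counts. The submitters' processing notes name Bowtie and, as build, Rnor_6.0. The counter and its use of strand are not stated there. Of 726 rows, 91 carry predicted names.

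Counts were tested with edgeR 4.0.16 (TMM, filterByExpr, robust quasi-likelihood test, limma 3.58.1, R 4.3.3) in 1 model of all 9 libraries without a replicate block. The filter kept 439 rows and removed 0.00685% of the reads. P-values were adjusted by Benjamini-Hochberg over all rows kept. Arm ratios, log2 of 5p over 3p counts with 0.5 added to each, were tested with limma. Floors are 3 counts. Intervals and floors cover counting error only. A fold against a floor leaves out the counting error of the group with reads. The scripts were tested on simulated data. Alternatives were other scalings, no filter, DESeq2 1.42.0, limma-trend on log2 TPM with 1 or 10 added, fits of 2 groups, a replicate block, the table without miR-3590 and leaving out each library.

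Named are all rows of the family, the 3 most alike rows for each of 3 guide arms, rows sharing a seed, and up to 4 called rows per list. The members and lists were chosen with earlier results of these data known.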

Additional observations from a re-analysis of the deposited data

How the results depend on the processing

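The call on miR-130b-5p at passage 9 held in 9 of 9 fits leaving out 1 library (log2 fold change 4.50 to 5.53 over P3, 2.96 to 3.73 over FFSS). It also held in 9 of 9 other settings. There the value fell to 2.77 and 0.79 over P3 and to 2.22 and 0.71 over FFSS on log2(TPM + 1) and log2(TPM + 10). These fits share libraries, and most used the filter, which the row passed only through P9. Without the filter, 9 of 9 fits leaving out 1 library called it over P3 (edgeR adjusted p from 1.50e-13 to 3.75e-06). Over FFSS 9 of 9 did so too (4.99e-07 to 1.63e-04). The other members were less firm. Where a call moved, the cause was not tested. miR-301a-5p in FFSS against P3 was -1.12 by library size, -1.01 on log2(TPM + 1), -0.70 on log2(TPM + 10) and -1.14 once a replicate block was fitted (adjusted p = 0.0605, 0.0714, 0.0704 and 0.0663), none passing, and -1.40 to -1.09 leaving out 1 library; P9 against FFSS ranged from 1.15 to 1.42. miR-130a-3p passed in FFSS against P3 in 2 of 9 other settings, DESeq2 and the fit of 2 groups (1.02 each). It ranged from 0.72 to 1.10 leaving out 1 library, where 1 of 9 fits passed. In P9 against FFSS it passed in 4 of 9 other settings: DESeq2 size factors (-0.97), DESeq2 (-0.95), log2(TPM + 1) (-1.03) and log2(TPM + 10) (-0.80). There it did not pass without the filter (edgeR adjusted p = 0.152), and 0 of 9 fits leaving out 1 library passed. Values near 0 in P9 against P3 changed sign. miR-130a-3p gave -0.041 on log2(TPM + 1) and -0.013 on log2(TPM + 10), and -0.22 to 0.31 leaving out 1 library. miR-301a-5p gave -0.027 by library size, -0.014 on log2(TPM + 1) and -0.013 on log2(TPM + 10), and -0.14 to 0.22.

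Leaving out 1 library moved miR-130a-5p from -0.46 to 0.077 (P9 against P3), -0.44 to 1.43 (FFSS against P3) and -1.61 to 0.28 (P9 against FFSS). It moved miR-301a-3p from -0.30 to 0.60 in P9 against P3, from -2.62 to -1.05 in FFSS against P3 and from 1.21 to 2.75 in P9 against FFSS. The miR-130a arm ratio moved from -0.42 to 0.090, -1.12 to 0.13 and -0.34 to 0.92 in the same 3 comparisons. The members called in FFSS against P3, 1 in the report, were 0 by library size, on both TPM scales and with the replicate block, and 2 in DESeq2 and in the fit of 2 groups. They were 0 to 2 leaving out 1 library, and 1 to 3 in P9 against FFSS.

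The numbers were not taken as pairs, since the labels do not say that they mark a shared culture or animal. Deviations of same-numbered libraries from their group means had correlations of -0.466 to 0.120. In the 3 comparisons 1, 2 and 2 of 6 libraries correlated best with their own number. A check on 3 libraries a group cannot decide whether they were paired. With the replicate block 27, 51 and 125 of all rows were called, against 32, 90 and 151. In the fit of P3 and FFSS alone miR-130b-5p was removed by the filter, and an arm minimum of 50 counts left no family hairpin. Depth limits miR-130b-3p and both miR-301b arms, at 6 to 27 reads in all.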

Other observations

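The equality of miR-130a and miR-3590 counts was not particular to this locus in number. Among mature sequences of the table that overlap by at least 15 bases on opposite strands of GRCr8, with a mean of at least 10 counts in 1 row or the other, there were 38 pairs. In 27 of them both rows agreed in all 9 libraries within 10% or 5 reads. Among them were let-7e-5p and miR-3596c, with mean counts of 14416 and 14380, and miR-9a-5p and miR-9b-3p, with 350 and 349. The report's tests on the table without the 2 miR-3590 rows kept every direction and call of the 5 tested members.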
